A study of Mus musculus with 12 samples.

Results

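Nrip1 and Adamts1 are protein-coding genes on mouse chromosome 16 at which trimethylated lysine 9 of histone H3 (H3K9me3) differed between embryonic stem cells of 2 Tex19.1 genotypes. The genes were chosen by the size of their log2 fold changes in the same comparison that is described here, so the values at them are a description and carry no test. Regions of the authors' deposited table were then taken by position (mm10), where they overlapped 76.27 to 76.39 Mb around Nrip1 or 85.78 to 85.82 Mb around Adamts1. This gave 6 of the 68291 regions of the table, 4 at Nrip1 and 2 at Adamts1, out of 2539 on chromosome 16. The 1 Mb on either side of each window held 63 further regions around Nrip1 and 38 around Adamts1.

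The study used chromatin immunoprecipitation with sequencing (ChIP-seq) to ask how H3K9me3 differs in the absence of Tex19.1, a gene expressed in germ cells and pluripotent cells. Its groups are Tex19.1+/- and Tex19.1-/- embryonic stem cells of the 129/Ola background, derived from the line E14Tg2a and grown with serum and leukaemia inhibitory factor to passages 12 to 20. Each genotype has 3 immunoprecipitated and 3 input libraries, 12 in all, and every library carries at least 1 disrupted Tex19.1 allele, so no group is wild type. The labels do not say whether the libraries came from separate cultures or how many clones were used, and the genotype field goes against the title in 6 of the 12 libraries. The groups counted here follow the titles. The table holds 1 row per region with a p-value, a false discovery rate (FDR), a log2 fold change between the genotypes and the mean signal in log2 CPM (reads scaled to library size). It has no values of single libraries, so the value in every sample and the spread between replicates cannot be shown. Nothing states which genotype was the reference, and a positive value means only that the mark was higher in 1 genotype, the same one throughout.

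H3K9me3 is a mark of heterochromatin. It is laid down by enzymes such as SETDB1 and the SUV39H proteins, it is read by HP1 proteins, and in embryonic stem cells it covers many retrotransposons and keeps them silent. Start sites of active genes usually lack it. Nrip1 encodes RIP140, a corepressor that binds hormone-activated nuclear receptors and brings in histone deacetylases and CtBP proteins. Adamts1 encodes a secreted metalloproteinase with thrombospondin repeats that cleaves proteoglycans such as versican. Both genes are known for their roles in ovulation, and both are transcribed from the minus strand.

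The start sites of both genes lay outside every region of the table. A start without a region need not lack the mark, since only listed regions are described here. The bases before the starts are shown because the changed regions lie on either side of the Adamts1 start and far inside Nrip1. They are the 250 bases before each start that RefSeq (GRCm38.p6, the assembly mm10 names) lists for the genes, on the minus strand and 5′ to 3′, with CpG dinucleotides in capitals. Nrip1 has 2 listed starts, with upstream sequence at chr16:76373828-76374077 (start 1) and chr16:76373050-76373299 (start 2), and Adamts1 has 1, at chr16:85803114-85803363.
Nrip1 start 1: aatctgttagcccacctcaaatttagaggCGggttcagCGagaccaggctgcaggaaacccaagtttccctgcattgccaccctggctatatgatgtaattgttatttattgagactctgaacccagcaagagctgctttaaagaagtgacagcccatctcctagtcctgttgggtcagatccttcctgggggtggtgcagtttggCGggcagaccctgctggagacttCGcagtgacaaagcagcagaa
Nrip1 start 2: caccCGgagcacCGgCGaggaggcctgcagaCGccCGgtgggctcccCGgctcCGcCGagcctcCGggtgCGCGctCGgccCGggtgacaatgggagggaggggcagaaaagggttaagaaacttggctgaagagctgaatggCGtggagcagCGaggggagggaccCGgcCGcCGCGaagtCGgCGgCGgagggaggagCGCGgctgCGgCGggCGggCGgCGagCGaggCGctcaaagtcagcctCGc
Adamts1 start 1: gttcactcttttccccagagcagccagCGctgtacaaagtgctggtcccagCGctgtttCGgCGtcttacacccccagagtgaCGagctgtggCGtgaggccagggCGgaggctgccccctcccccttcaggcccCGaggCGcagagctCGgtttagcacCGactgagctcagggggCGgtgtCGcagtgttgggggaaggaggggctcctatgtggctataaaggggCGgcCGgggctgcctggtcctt

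The 3 sequences differ in composition. Nrip1 start 2 holds 32 CpG in 250 bases at a GC content of 73.6%, and 4.58% of 32851 mouse promoters of this length hold as many. Adamts1 holds 15 CpG at 65.6% GC, which 27.3% of promoters reach. Nrip1 start 1 holds 4 CpG at 51.2% GC, below the median of 6 over all promoters. A search of both strands for 4 short motifs found the TATA element TATAAA once, beginning 32 bases before the Adamts1 start (12.4% of promoters hold it). The GC box GGGCGG occurred 3 times before the Adamts1 start and 2 times before Nrip1 start 2 (32.7% of promoters). Neither AGGTCA, the core motif of nuclear receptors (14.0% of promoters), nor CCAAT (33.8% of promoters) was found in the 3 windows. The 2 GC boxes before Nrip1 start 2 share bases, and no other matches overlap. These matches describe the letters only.

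No region overlapped any of the 3 promoter windows, counted as 250 bases before to 50 bases after a start. Across the genome 2.73% of such windows overlapped a region, and 5.48% had one within 1 kb. The Adamts1 window was among the latter, with a region 353 bp away, whereas the nearest region to the Nrip1 windows was 28380 bp and 27602 bp away.

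Within Nrip1 (chr16:76287403-76373827, 86425 bp) all 4 regions lay inside the gene body, between 28429 and 53827 bp downstream of the start. Exon and intron positions were not used here. Read in the direction of transcription, the log2 fold change in the authors' deposited table was higher in each region than in the one before it. The first region, chr16:76342152-76345398, is the strongest and widest of the locus, at 43.3 CPM over 3246 bp, and had 0.25 (derived standard error 0.14, FDR 1). The second, chr16:76336682-76337610, is weak, at 7.34 CPM over 928 bp, and had 0.90 (derived standard error 0.39, FDR 0.815). These first 2 regions did not pass the authors' threshold, an FDR below 0.05.

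The other Nrip1 regions were both called. The third, chr16:76322528-76324116, had 12.8 CPM over 1588 bp, and the authors' deposited table lists it at 1.36 on the log2 scale, a 2.57-fold difference (derived standard error 0.29, FDR 0.00257). The fourth, chr16:76320000-76321382, had 9.99 CPM over 1382 bp and a log2 fold change of 2.10, a 4.28-fold difference (derived standard error 0.35, FDR 8.31e-06). These neighbours are separated by 1146 bp and lie at 58.4% and 61.5% of the gene's length from its start. The derived standard error is the size of the log2 change over the normal deviate that matches the authors' p-value, and it inherits whatever that test assumed.

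From the first to the fourth Nrip1 region the log2 fold change was 1.84 higher. The steps between neighbours were 0.64 (derived standard error 0.41), 0.46 (0.48) and 0.74 (0.46), so the order of neighbouring regions is not resolved. These errors take the regions as independent, although they were measured in the same libraries, and the locus was chosen for its high values, so no test is drawn from them. The positions and intervals of all 6 regions are drawn in the map of both windows.

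**Figure D1:**
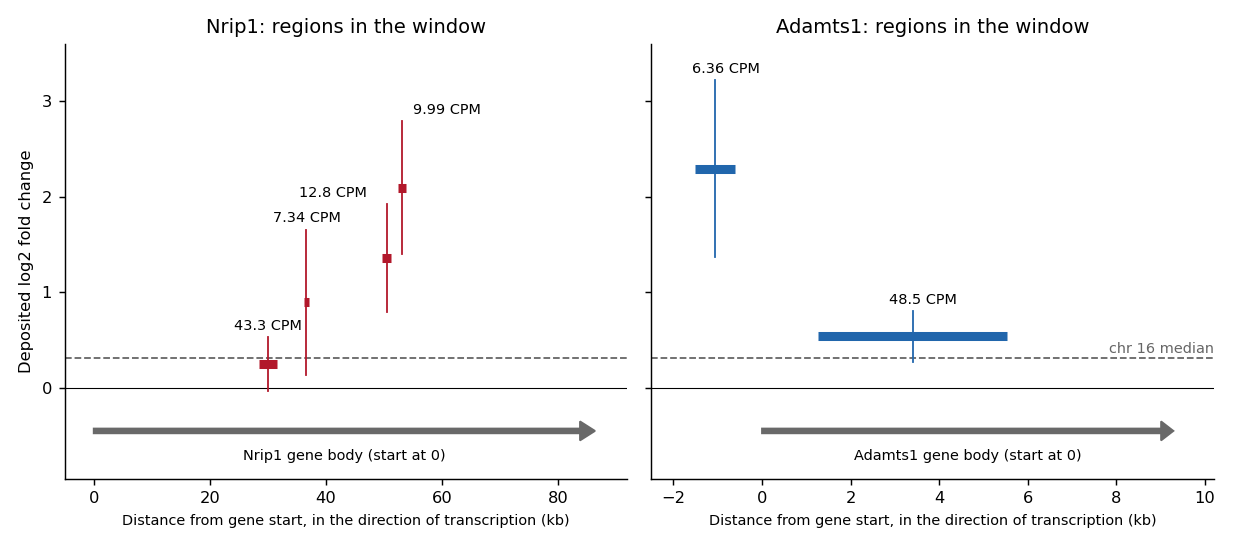
Map of the H3K9me3 regions in the Nrip1 window (left, 4 regions) and the Adamts1 window (right, 2 regions), with distance from the gene start in kb on the x axis and the deposited log2 fold change on the y axis. Horizontal bars span each region, vertical lines are 95% intervals from the derived standard error, labels give the average CPM, arrows are gene bodies and the dashed line is the chromosome 16 median of 0.32. The weak regions at 2.10 and 2.29 stand highest, while the strong regions at 43.3 and 48.5 CPM lie at 0.25 and 0.54.

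At Adamts1 (chr16:85793827-85803113, 9287 bp) the start site lies in a gap of 1864 bp between the 2 regions of the window. The upstream region, chr16:85803716-85804636, begins 603 bp before the start and ends 1523 bp before it, outside the gene. It had 6.36 CPM over 920 bp, and the authors' deposited table lists it at 2.29 on the log2 scale, a 4.90-fold difference (derived standard error 0.47, 95% interval 1.37 to 3.22, FDR 0.00149). The region in the gene body, chr16:85797577-85801852, spans bases 1261 to 5536 after the start. It had 48.5 CPM over 4275 bp and 0.54, a 1.45-fold difference (derived standard error 0.14, 95% interval 0.27 to 0.81, FDR 0.0356). Both were called and both were positive. Under the stricter Holm adjustment of the authors' p-values neither call held (adjusted p = 0.0798 upstream and 1 in the body), nor did that of the third Nrip1 region (0.151), while the fourth Nrip1 region had 0.000224. The log2 fold change of the body region was lower than that of the upstream region by 1.76, again a description of regions chosen on this comparison.

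Of the 6 regions, 4 were called, all positive. Among all regions of the table, 0.281% were called and 0.192% were called positive, and on chromosome 16 the positive share was 1.58%. Since the genes were chosen on this comparison, nothing is read from the count. The regions nearest to the windows but outside them were not called. On the lower side of Nrip1, 77015 bp from the window, a region had 0.28, and on the upper side, 42490 bp away, one had 0.88. On the lower side of Adamts1, 5096 bp away, a region of 19.7 CPM had 0.29, and on the upper side, 277368 bp away, one had 0.77, all in the authors' deposited table.

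The upstream Adamts1 region had the highest log2 fold change of all 68291 regions, and the fourth Nrip1 region ranked 7 (on chromosome 16, 1 and 6). The third Nrip1 region ranked 189, the second 1459, the Adamts1 body region 6058 and the first Nrip1 region 16084. By p-value the order was another, with the fourth Nrip1 region at rank 27, the upstream Adamts1 region at 54, the third Nrip1 region at 58 and the Adamts1 body region at 167. Chromosome 16 held 7 of the 10 regions of the table with a log2 fold change of at least 2, and 3 of these 7 were called.

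Signal set how large a difference had to be before it was called. Of 12507 other regions within 0.25 of the log2 CPM of the upstream Adamts1 region, 1 was called, at 2.11, and no region of the table with a lower log2 CPM than this one (2.67) was called. Around the fourth Nrip1 region 6 of 9242 were called, the smallest at 1.24. At the signal of the Adamts1 body region the smallest called difference was 0.50. A difference like that of the body region would therefore not have been detectable at this depth in the weak regions. On chromosome 16, none of the 332 other regions of like signal exceeded the fourth Nrip1 region and none of 456 exceeded the upstream Adamts1 region. Among regions of like signal there, 52 of 118 exceeded the first Nrip1 region and 3 of 98 exceeded the Adamts1 body region. The genes were chosen by the size of these values, and the upstream Adamts1 region ranks 1 in the whole table, so nothing is read from these counts. The plot of log2 fold change against signal shows the 6 regions among all regions of the chromosome.

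**Figure D2:**
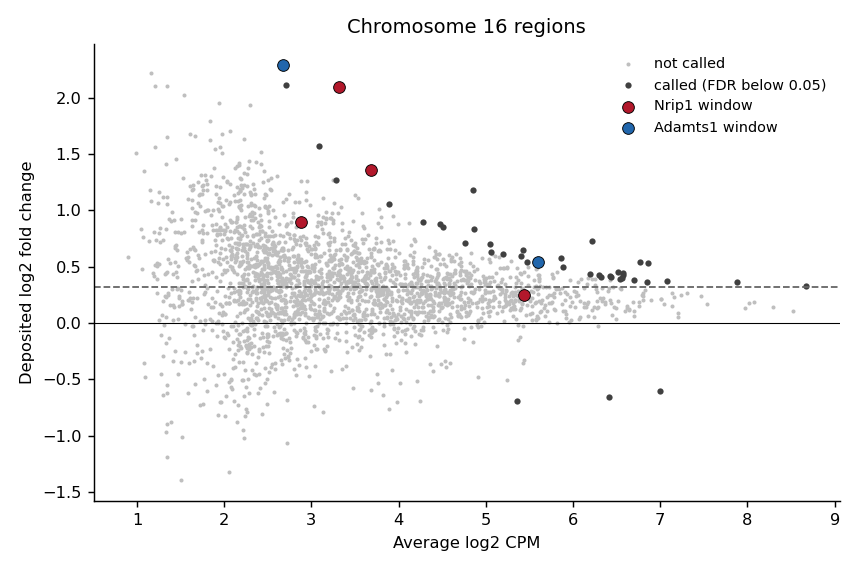
Deposited log2 fold change (y axis) against average log2 CPM (x axis) for the 2539 regions of chromosome 16, with called regions dark and the regions at Nrip1 (red) and Adamts1 (blue) enlarged. The upstream Adamts1 region is the called region of lowest signal, and the dashed line is the chromosome median of 0.32.

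The 6 regions also differed in how densely the mark was read over their length. The median over all regions was 11.3 CPM per kb. The Adamts1 body region (11.3) and the first Nrip1 region (13.3) were at or above it, at percentiles 50.3 and 76.8. The other 4 regions were among the sparsest of the table, the second, the third and the fourth of Nrip1 at 7.91, 8.06 and 7.23 CPM per kb and the upstream Adamts1 region at 6.91. Only 81 regions of the table were sparser than the fourth Nrip1 region, and 22 were sparser than the upstream Adamts1 region, which was the sparsest of chromosome 16. By width, the Adamts1 body region and the first Nrip1 region were at percentiles 96.5 and 93.7 of the table, and the other 4 lay between percentiles 58.8 and 79.4.

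Density is an average over both genotypes, so it is tied to the difference between them. If both genotypes carried equal weight in the average, the fourth Nrip1 region had 16.2 CPM in the higher genotype and 3.79 in the lower. That is 11.7 CPM per kb, near the median of all regions, against 2.74. The upstream Adamts1 region had 10.6 against 2.15 CPM on the same terms, or 11.5 against 2.34 CPM per kb. The third Nrip1 region had 18.4 against 7.18 CPM, or 11.6 against 4.52 CPM per kb. The Adamts1 body region, by contrast, had 57.4 against 39.5 CPM, or 13.4 against 9.25 CPM per kb. These levels are arithmetic from the authors' 2 columns, not measured levels of a library.

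Apart from the regions at Nrip1 and Adamts1, 962 regions of the table were as sparse as the third Nrip1 region or sparser. Of these 21.2% had an absolute log2 fold change of at least 1, against 1.88% of the denser regions. Among them 6 were called, 4 positive and 2 negative, against 182 of the 67323 denser regions, 123 positive and 59 negative. On chromosome 16 there were 44 such regions, with a median log2 fold change of 1.04 and 2 calls, both positive. An absolute log2 fold change of at least 1 was found in 52.3% of these 44, and an unadjusted p below 0.05 in 47.7%. In the 2489 denser regions of the chromosome the shares were 5.50% and 17.4%, with 37 calls. The bound was set after the values were seen. How region borders were set is not given in the sources used here, and their part in these values was not tested.

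**Figure D3:**
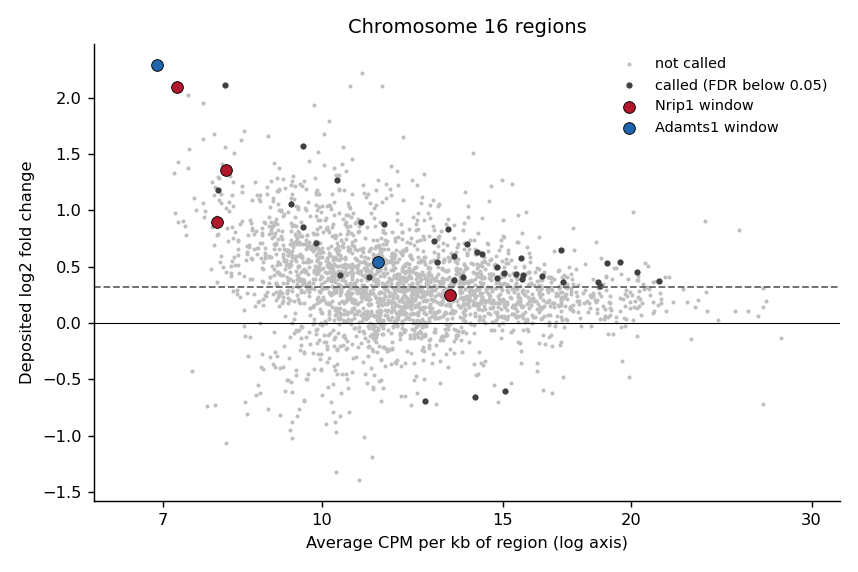
Deposited log2 fold change (y axis) against average CPM per kb of region (x axis, log scale) for chromosome 16, with the regions at Nrip1 (red) and Adamts1 (blue) enlarged and called regions dark. Of the 6 regions, 4 lie at the sparse edge, from 6.91 to 8.06 CPM per kb, and the other 2 lie at 11.3 and 13.3.

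Chromosome 16 as a whole was positive, with a median log2 fold change of 0.32 (95% binomial interval 0.30 to 0.33) and 85.7% of regions above 0, against a median of -0.03 outside chromosomes 11 and 16. Chromosome 11 was left out there too, so the shift is not shown to be particular to chromosome 16. Of all 131 positive calls, 40 lay on chromosome 16 and 57 outside chromosomes 11 and 16, and the rest were on chromosome 11. The negative calls numbered 61, 3 and 57 in the same order. Values on chromosome 11 are given as deposited only. With the chromosome 16 median subtracted, the upstream Adamts1 region had 1.98 and the third and the fourth Nrip1 regions had 1.04 and 1.78. The second Nrip1 region had 0.58 with a derived standard error of 0.39. Of the strong regions, only the first Nrip1 region came within its derived error of 0. The Adamts1 body region had 0.22 (derived standard error 0.14) in place of 0.54, and the first Nrip1 region had -0.06 (0.14) in place of 0.25. The FDR of the body region is for its deposited value and not for the value relative to the chromosome. Why the chromosome differs, and its part in the values at both genes, was not tested.

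The values also moved with the reference level. Relative to the median of its own 1 Mb flanks the upstream Adamts1 region had 1.78, the fourth Nrip1 region 1.73, the third 0.99 and the second 0.53, while the Adamts1 body region had 0.03 and the first Nrip1 region -0.11. Against regions of like signal outside chromosomes 11 and 16 the 6 values were close to those deposited, from 0.33 at the first Nrip1 region and 0.61 at the Adamts1 body to 2.11 at the fourth Nrip1 region and 2.28 upstream of Adamts1. Against like signal on chromosome 16, a level added after seeing the data, the Adamts1 body region had 0.29 and the first Nrip1 region 0.03 (derived standard error 0.14 for each). The flanks of Adamts1 were mostly weaker in signal than its body region, with 29 of 38 below a log2 CPM of 3 against its 5.60. The first Nrip1 region was thus within its derived error of 0 under every level taken on chromosome 16. For the Adamts1 body the level chosen decides whether the mark is described as higher or as level with its surroundings.

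**Figure D4:**
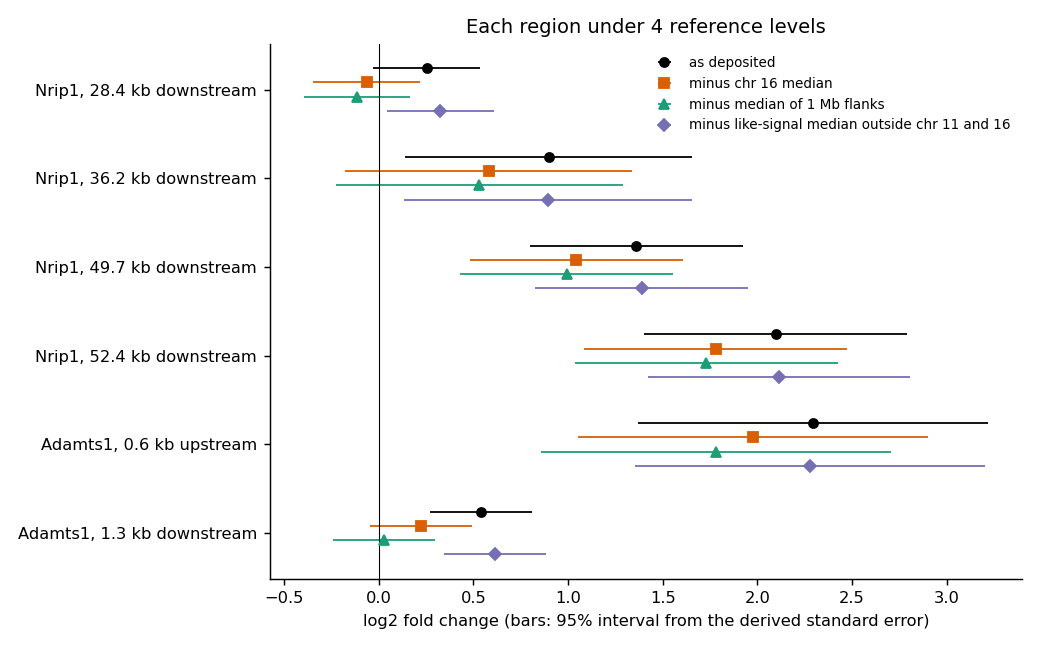
Log2 fold change (x axis) of each of the 6 regions, named by the distance of its near edge from the gene start, as deposited and after subtraction of 3 medians. Bars are 95% intervals from the derived standard error. The intervals of the third and the fourth Nrip1 regions and the upstream Adamts1 region stay above 0 under all 4 levels. The values of the first Nrip1 region and the Adamts1 body region reach -0.11 and 0.03 relative to their flanks.

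Most of the signal of each window came from its strong region. The Nrip1 window held 73.4 CPM over 7144 bp, 5.95% of its length, and its first region supplied 59.0% of that signal. The Adamts1 window held 54.8 CPM over 5195 bp, 13.0% of its length, with 88.4% from the body region. The fourth Nrip1 region and the upstream Adamts1 region supplied 13.6% and 11.6% of the signal of their windows.

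Around Nrip1, 57 of the 63 flanking regions were positive, with a median of 0.37 (95% binomial interval 0.31 to 0.49). By the authors' FDR 0 of 63 were called, while 13 (20.6%) had an unadjusted p below 0.05, all 13 positive. On the whole of chromosome 16, 1.58% were called positive, and 18.1% had an unadjusted p below 0.05 in either direction. The flanks were thus near the rate of the chromosome. The values ran from -0.18 to 1.43 in the authors' deposited table, so none reached the fourth Nrip1 region, and 2 exceeded the third. The highest, 1.43 (5.16 CPM, FDR 0.377) at chr16:76902548-76903259, lay 110425 bp from Usp25, a ubiquitin-specific protease. It was followed by 1.41 (2.51 CPM, FDR 1) and 1.15 (4.68 CPM, FDR 0.852) on the other side of Nrip1. The lowest were -0.18, -0.13 and -0.12, each with an FDR of 1. The strongest flanking region, chr16:76527886-76533309 with 76.9 CPM, lay 154059 bp upstream of the gene and had 0.30 (derived standard error 0.11, FDR 0.481), close to the chromosome median. The smallest p belonged to a region 160061 bp beyond the 3′ end of Nrip1, at 0.94 (13.9 CPM, derived standard error 0.27, FDR 0.111).

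Nrip1 has 6 protein-coding neighbours within 1 Mb of its window. In order of coordinates these are Robo2 (an axon guidance receptor), Lipi (a lipase), Rbm11 (an RNA-binding protein), Hspa13 (an HSP70-like chaperone), Samsn1 (a signalling adaptor) and Usp25. Lipi, Rbm11, Hspa13, Samsn1 and Usp25 held no region in their bodies. Robo2, whose long body reaches beyond the flank, held 6 regions with values from 0.39 to 0.85 and 0 calls (1 with an unadjusted p below 0.05).

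Around Adamts1, 34 of the 38 flanking regions were positive, with a median of 0.51 (95% binomial interval 0.36 to 0.74). By the authors' FDR 0 were called, while 9 (23.7%) had an unadjusted p below 0.05, all 9 positive. The chromosome shares were again 1.58% called positive and 18.1% with an unadjusted p below 0.05 in either direction. The lower side, with App, had a median of 0.62 over 26 regions and the upper side 0.28 over 12. These flanks were weak, with a median of 5.73 CPM, and 29 of the 38 regions were below a log2 CPM of 3. The 9 regions at or above it had a median of 0.29. The 3 highest values were all in App, at 1.66 (3.18 CPM, FDR 1), 1.37 (4.85 CPM, FDR 0.669) and 1.16 (7.64 CPM, FDR 0.30) in the authors' deposited table. The last of these had the smallest p of the flanks. The 3 lowest were -0.30, -0.22 and -0.10, each with an FDR of 1. The strongest flanking region was the one 5096 bp below the window described above.

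Of the 6 protein-coding neighbours of Adamts1, 4 held no region in their bodies: Jam2 (a junctional adhesion molecule), Atp5j (an ATP synthase subunit), Gabpa (an ETS transcription factor) and Adamts5. Adamts5, a close relative of Adamts1 that cleaves aggrecan, lies 55.0 kb from the Adamts1 start. Cyyr1, a small membrane protein gene, held 1 region at 0.44. App, which encodes the amyloid precursor protein, held 12 regions with a median of 0.70 and a range of -0.01 to 1.66, and 6 of them had an unadjusted p below 0.05 with 0 called. Both flanks are drawn in the plot of the 1 Mb surroundings.

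**Figure D5:**
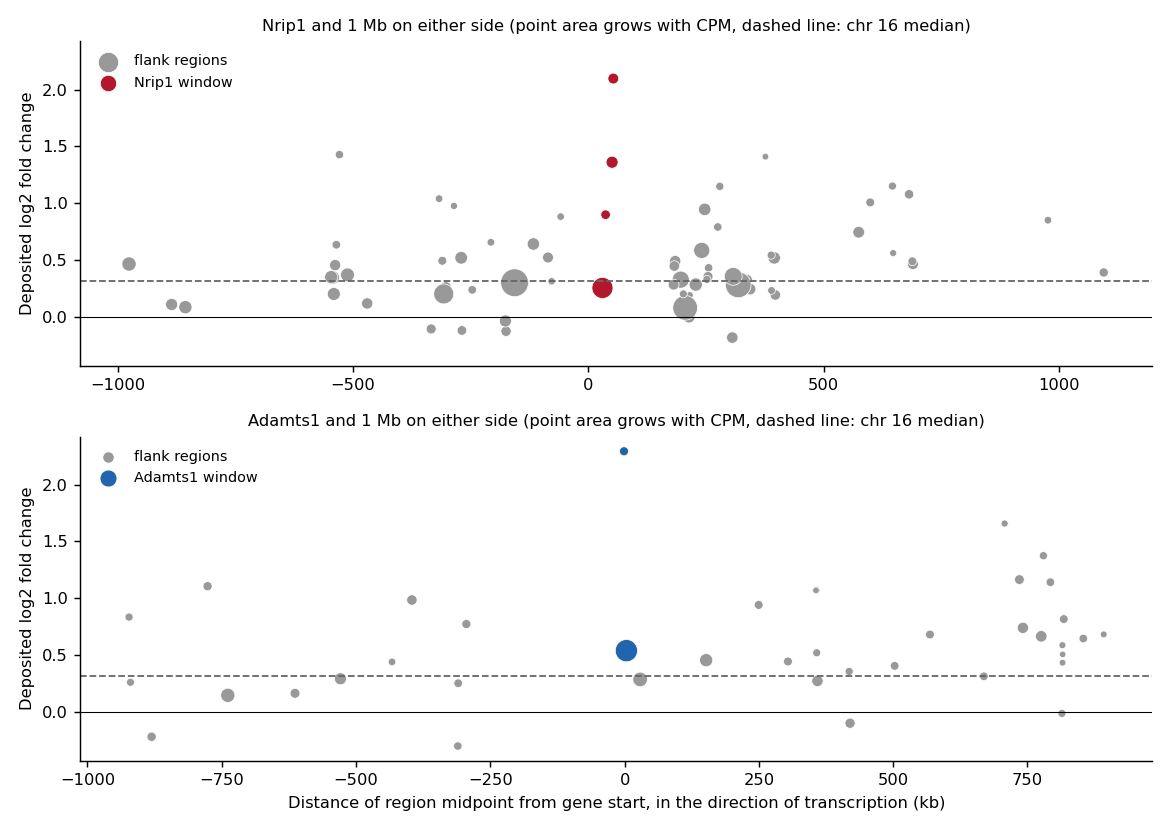
Deposited log2 fold change (y axis) of every region within 1 Mb of the Nrip1 window (top) and the Adamts1 window (bottom) against distance of the region midpoint from the gene start in kb (x axis, downstream to the right). Point area grows with CPM, coloured points are the regions in the windows, and the dashed line is the chromosome median of 0.32. The flanks scatter around medians of 0.37 and 0.51, and the fourth Nrip1 region (2.10) and the upstream Adamts1 region (2.29) lie above every flanking region.

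Among the called positive regions of chromosome 16, the 5 largest include 3 of the regions described here, at 2.29, 2.10 and 1.36. The other 2 lay outside protein-coding genes, at 2.11 (chr16:13078670-13079484, 29882 bp from the DNA repair gene Ercc4, FDR 0.00497) and at 1.57 (chr16:70975713-70976596, 405993 bp from the glycogen branching enzyme gene Gbe1, FDR 0.0157). Likeness to the most changed region of each gene was taken as the distance in log2 fold change and log2 CPM over all called regions of the table. The region nearest to the upstream Adamts1 region was the one near Ercc4 (distance 0.19), followed by the fourth Nrip1 region (0.68) and a region at 1.56 on chromosome 11, 768404 bp from Vrk2 (0.78). The regions nearest to the fourth Nrip1 region were those near Gbe1 (0.58) and Ercc4 (0.61) and a region at 1.53 in Ccl6 on chromosome 11 (0.61).

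The relatives and partners of both genes were described from lists of genes. Of all 68291 regions, 4.74% had an unadjusted p below 0.05 and 0.281% were called, so that lists of this size would hold few or no calls at the rate of the table. A region was counted for a gene when it lay in its body or within 5 kb. Of 25 genes of the ADAMTS and ADAMTSL family, 17 had a region, 75 in all. The 2 called were those of Adamts1, and of the other 73 regions 0 were called, 4 (5.48%) had an unadjusted p below 0.05, near the share of the table, and the median was 0.05, against -0.01 over all regions. With the gene body alone 1 region of the family was called, since the upstream Adamts1 region lies outside the gene. The smallest p-values were at Adamts2, a procollagen peptidase on chromosome 11 (0.35, 94.8 CPM, FDR 0.0816), Adamtsl2 (-0.39, FDR 0.765) and Adamtsl1 (1.56 at 3.63 CPM, FDR 0.838). Substrates and inhibitors of these proteases, such as versican and the TIMP proteins, had 13 regions at 9 of 17 genes, with 0 called, 0 with an unadjusted p below 0.05 and a median of -0.02. Of these, Timp3, a metalloproteinase inhibitor gene that lies within Syn3, had the smallest p, at -1.25 (3.57 CPM, FDR 1), followed by Timp2 (0.58, FDR 1) and Hapln1 (-0.40, FDR 1).

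Of 31 nuclear receptor coregulators, 14 had a region, 71 in all. The 2 called were those of Nrip1. Of the other 67 regions 0 were called and 3 (4.48%) had an unadjusted p below 0.05, with a median of 0.10. The smallest p among them was at Crebbp, an acetyltransferase and coactivator that also lies on chromosome 16, at 0.48 (36.5 CPM, FDR 0.28) or 0.17 relative to the chromosome median. It was followed by Tbl1xr1 (1.40 at 4.29 CPM, FDR 0.769) and Hdac2 (0.74, FDR 1). The nuclear receptors themselves had 95 regions at 20 of 48 genes, with 0 called, 2 (2.11%) with an unadjusted p below 0.05 and a median of 0.0018. The smallest p was at Nr3c2, the mineralocorticoid receptor (-0.36, 81.6 CPM, FDR 0.147), followed by Esrrg (0.58, FDR 0.907) and Nr4a3 (1.18, FDR 1).

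Genes of ovulation and cumulus expansion, a list that holds both Nrip1 and Adamts1, had 34 regions at 9 of 22 genes and 4 calls. All 4 are regions described above. Of the other 28 regions 0 were called, 2 (7.14%) had an unadjusted p below 0.05, and the median was 0.18. The 3 smallest p-values were all in Runx1, a transcription factor gene on the same chromosome, at 0.61 (FDR 0.374), 0.91 (FDR 1) and 0.86 (FDR 1) in the authors' deposited table, or 0.29, 0.59 and 0.54 relative to the chromosome median. The mark was also described at 20 pluripotency genes. These had 5 regions at 3 genes, with 0 called and 0 with an unadjusted p below 0.05. The values included 0.43 near Dppa3, 0.08 near Nanog and -0.04 in Esrrb. The 16 fibroblast genes had 13 regions at 9 genes, 7 negative and 6 positive, with a median of -0.11 and 0 called. Of these regions 2 (15.4%) had an unadjusted p below 0.05, against 4.74% of all regions. The smallest p-values of that list were at Col1a1 on chromosome 11 (0.43, 23.9 CPM, FDR 0.958), Thy1 (0.72, 9.01 CPM, FDR 0.991) and Twist2 (0.87 at 3.72 CPM). All 3 are positive, although 7 of the 13 regions were negative. The table holds no expression values, so it does not show whether either gene was transcribed.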

How the data were processed

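H3K9me3 ChIP-seq compared 2 genotypes of mouse embryonic stem cells. Per the submitters' processing notes, Bowtie2 2.2.6, HOMER 4.8, bedtools 2.25.0, edgeR and mm10 were used, with no role given. The authors deposited 1 table with a log2 fold change and an average log2 CPM per region, and a p-value and an FDR, per the file headers. Which libraries entered it, whether input was used and whether starts count from 0 or 1 are not stated there; coordinates are printed as deposited. Library depth was not analysed, since the table has 0 columns of single libraries.

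The deposited FDR differed from a Benjamini-Hochberg adjustment of the p-values by at most 3.2e-05, and both called the same 192 regions. Standard errors were derived from p-values where the normal deviate was at least 1. Like signal means within 0.25 in log2 CPM. Medians carry 95% binomial intervals over regions, which are not independent. Genes were placed by the RefSeq table of GRCm38.p6. Members and gene lists were chosen with earlier results of these data known. Every region in the windows was named, with the called, highest, lowest, nearest and strongest flanking regions and for each list the 3 regions with the smallest p. Python 3.11.15, pandas 2.3.3, SciPy 1.17.1 and matplotlib 3.10.9 were used, and the arithmetic was tested on simulated data.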

Additional observations from a re-analysis of the deposited data

How the results depend on the processing

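No paired analysis was possible because the table holds no values of single libraries, and no replicate could be left out. Over the whole table the 192 calls became 101 at an FDR below 0.01, 48 under Holm adjustment and 202 with Benjamini-Hochberg adjustment over regions with a log2 CPM of at least 2. The fourth Nrip1 region was called under all 3. The upstream Adamts1 region lost its call under Holm adjustment (adjusted p = 0.0798, with 0.00132 to 0.0798 over its alternatives), as did the third Nrip1 region (0.151) and the Adamts1 body region (1), which was also not below 0.01 (0.0356). Relative to its flanks the fourth Nrip1 region moved by more than its derived error, from 2.10 to 1.73, and relative to like signal on chromosome 16, a level added after seeing the data, to 1.73. Upstream of Adamts1 the flanks gave 1.78 in place of 2.29. With regions of a log2 CPM of at least 3 alone, the median of the Adamts1 flanks was 0.29 in place of 0.51 and that of chromosome 16 was 0.28 in place of 0.32; the cause was not tested. Of the 34 recomputed values of the main results, 26 stayed within their error or on the same side of the threshold. Those 34 leave out the log2 fold changes and calls of the third Nrip1 region and the Adamts1 body region. Among the other recomputed values, which include these, 31 were classed as unchanged and 10 as moved, and 3 lost a call. Counts of regions and calls in both windows were the same by an overlap of 1 bp, by midpoint and for the gene body with 5 kb. In the Adamts1 body alone, 1 region and 1 call remained. With gene bodies alone the calls of the ADAMTS list fell from 2 to 1 and those of the ovulation list from 4 to 3, and the other 5 lists had the same number of calls (2 or 0) with bodies alone and with 10 kb. The weakest regions limit what the depth can show, as given above.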
